A study of Homo sapiens with 4 samples.

Results

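The genes described here are 26 noncoding genes of the count table of MOLM-13 leukaemia cells: the annotated small nucleolar RNA host genes whose symbol is SNHG followed by a number, together with GAS5, ZFAS1, DANCR, EPB41L4A-AS1 and CYTOR. They were found by symbol among the 24940 genes listed, a rule that itself uses no measured value. All 26 carry a noncoding gene type in the GENCODE 29 annotation. Within their bounds 24 of them hold 139 annotated small RNAs in all, of the box C/D, box H/ACA or Cajal body kind, whereas CYTOR and SNHG27 hold none. Of the 26, 22 reached at least 1 CPM (counts scaled for library size) in at least 1 library and 16 reached 10 CPM.

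A host gene is transcribed and spliced like an ordinary gene, and its small nucleolar RNAs (snoRNAs) are trimmed out of the excised introns. Box C/D snoRNAs guide ribose methylation and box H/ACA snoRNAs guide pseudouridylation, mostly of ribosomal RNA, and the related Cajal body RNAs (scaRNAs) guide the same changes in spliceosomal RNAs. The spliced host transcript left behind often begins with a run of pyrimidines at its cap, as ribosomal protein mRNAs do, and GAS5 and several others are known to be engaged by ribosomes and then destroyed by nonsense-mediated decay. c-Myc is a transcription factor known for driving genes of ribosome production. The deposited values are reads assigned to host genes in a total RNA preparation, and the mature snoRNAs are not analysed here.

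MOLM-13 is a monocytic acute myeloid leukaemia line. Lentiviral short hairpins, labelled as induced with doxycycline in every group (a time, 72 h, is stated for the Western blot alone), were directed against c-Myc and Bcl-2 together (sh-c-Myc_sh-Bcl2, here the double knockdown), against c-Myc (sh-c-Myc), against Bcl-2 (sh-Bcl2), or were a negative control (shControl). Infected cells were selected with 0.5 µg/ml puromycin or 600 µg/ml G418, and the sources used here do not give the number of hairpins per target or of clones. Each group held 1 library, so no difference between 2 groups has a replicate check. In bulk RNA fewer cells of a kind and less RNA per cell cannot be told apart.

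The libraries held between 14421558 and 15691129 counts, the fewest in sh-c-Myc. Genes with a count numbered 20318 in the double knockdown, 21426 in sh-c-Myc, 19823 in sh-Bcl2 and 19450 in shControl. MYC stood at 302 CPM in the double knockdown, 278 CPM in sh-c-Myc, 364 CPM in sh-Bcl2 and 434 CPM in shControl, so that its log2 ratio to shControl was -0.52, -0.64 and -0.25 in the first 3 of these. BCL2 stood at 44.5, 112, 38.7 and 119.7 CPM in the same order. All 10 myeloid markers examined were above 1 CPM in at least 1 library, with a summed level of 3495 CPM in the double knockdown, 3209 CPM in sh-c-Myc, 1560 CPM in sh-Bcl2 and 1454 CPM in shControl. ELANE and MPO, of neutrophil granules, carried most of that sum in the double knockdown, with 1255 and 660 CPM, against 350 and 131 CPM in shControl. In shControl the largest single marker was FLT3, at 426 CPM, with 592 CPM in the double knockdown. CSF1R had 152 CPM in the double knockdown, 179 CPM in sh-c-Myc, 35.7 CPM in sh-Bcl2 and 19.0 CPM in shControl. LYZ had 347, 240, 91.8 and 36.1 CPM in the same order. CD33, SPI1, CEBPA and HOXA9 differed less between libraries. MEIS1 had 25.5 CPM in the double knockdown, 27.2 CPM in sh-c-Myc, 29.2 CPM in sh-Bcl2 and 38.2 CPM in shControl. The erythroid genes HBB and KLF1 summed to at most 0.330 CPM and the megakaryocyte genes ITGA2B and GP9 to at most 1.60 CPM. The part of these marker levels in the results that follow was not tested.

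The host genes spanned a wide range of levels. On the deposited FPKM scale, which divides counts by gene length, GAS5 was the highest, at 106 FPKM in the double knockdown, 93.6 FPKM in sh-c-Myc, 128 FPKM in sh-Bcl2 and 176 FPKM in shControl. SNHG8, the host of SNORA24, followed at 58.3, 48.5, 76.0 and 104 FPKM in the same order, and SNHG6, the host of SNORD87, at 65.6, 52.3, 70.6 and 82.9 FPKM. In shControl the next in order were SNHG1 at 40.2 FPKM, SNHG5 at 38.1 FPKM, DANCR at 34.2 FPKM, SNHG3 at 25.8 FPKM and SNHG7 at 19.6 FPKM. GAS5, SNHG8, SNHG6, SNHG1 and SNHG7 each had their highest FPKM in shControl. DANCR, SNHG3, SNHG16, SNHG4 and ZFAS1 instead had it in sh-Bcl2, and SNHG14 had it in sh-c-Myc.

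**Figure D1:**
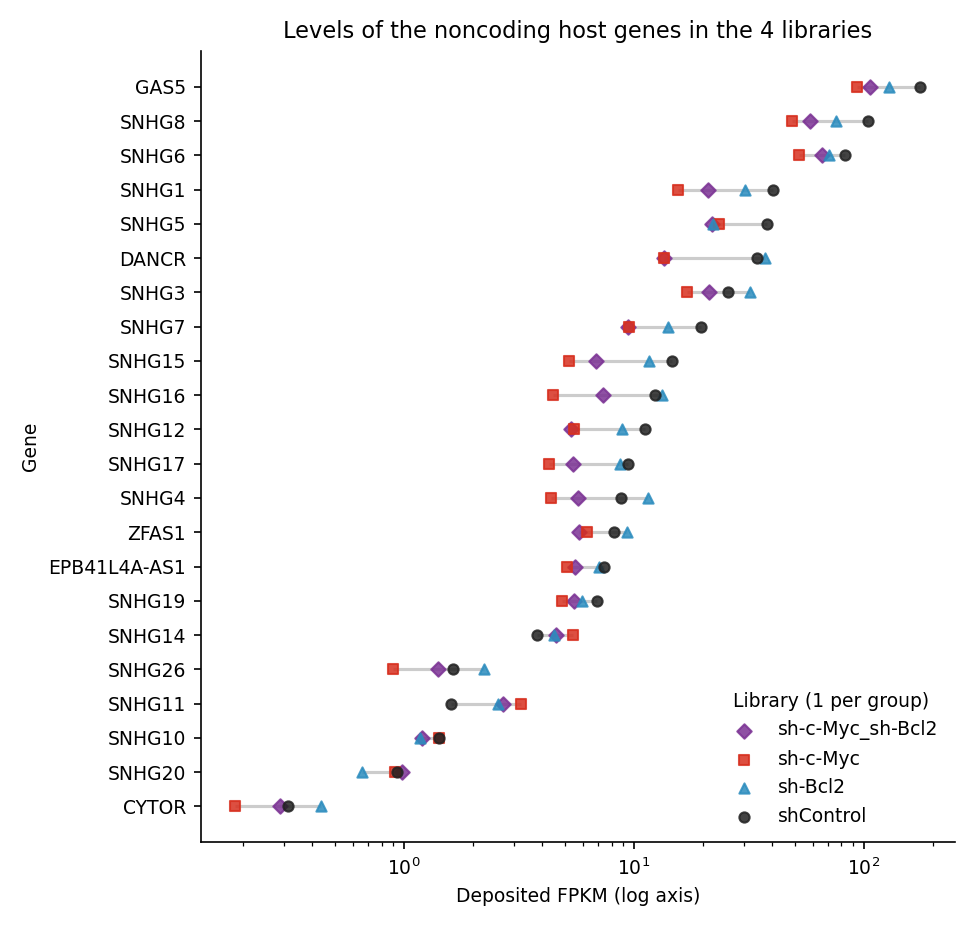
Deposited FPKM (log axis) of the 22 noncoding host genes that reached 1 CPM, with 1 point per library, ordered by their level in shControl. GAS5 tops the plot at 176 FPKM in shControl, and for most genes the red square of sh-c-Myc is the leftmost point, while SNHG14 and SNHG11 run the other way.

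Summed over the 26 genes, the counts made up 0.121% of the double knockdown library, 0.111% of sh-c-Myc, 0.158% of sh-Bcl2 and 0.185% of shControl. GAS5 alone supplied 31.8% of those counts in the double knockdown, 30.6% in sh-c-Myc, 29.4% in sh-Bcl2 and 34.7% in shControl. SNHG14, a transcript of the imprinted Prader-Willi region whose annotated span of chr15:24978583-25419462 holds 83 box C/D snoRNA genes, supplied 16.4% in the double knockdown, 21.1% in sh-c-Myc, 12.3% in sh-Bcl2 and 8.86% in shControl. The other long noncoding genes together took 0.909% of all counts in the double knockdown, 1.2% in sh-c-Myc, 0.730% in sh-Bcl2 and 0.706% in shControl. The host genes thus took their smallest share in the library in which other long noncoding genes took their largest.

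The annotated starts were read from RefSeq (GRCh38.p14), which lists a promoter window, 250 bases before to 50 bases after the start, for 22 of the 26 genes, all but SNHG6, SNHG9, SNHG15 and SNHG25. The following windows of 60 bases, 30 on each side of the start, are shown because the host genes are known for a pyrimidine tract at the cap and because many of these genes were lower together in sh-c-Myc. Capitals mark the longest unbroken run of C and T that lies at least partly within 20 bases of the start, and the first of them where 2 are equally long, as in SNHG1 and SNHG14. All are written 5′ to 3′ on the strand of the gene.
SNHG4 (chr5:139274071-139274130, plus strand): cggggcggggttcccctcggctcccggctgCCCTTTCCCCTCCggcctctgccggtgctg
SNHG12 (chr1:28581844-28581903, minus strand): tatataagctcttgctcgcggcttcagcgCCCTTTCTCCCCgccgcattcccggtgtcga
SNHG16 (chr17:76557734-76557793, plus strand): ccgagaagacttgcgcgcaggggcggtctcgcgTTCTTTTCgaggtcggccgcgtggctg
ZFAS1 (chr20:49278612-49278671, plus strand): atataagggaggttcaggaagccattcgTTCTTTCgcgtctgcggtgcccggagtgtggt
SNHG1 (chr11:62855856-62855915, minus strand): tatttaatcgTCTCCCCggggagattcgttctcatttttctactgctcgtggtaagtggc
DANCR (chr4:52712364-52712423, plus strand): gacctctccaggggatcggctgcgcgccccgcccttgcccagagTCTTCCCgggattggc
GAS5 (chr1:173869016-173869075, minus strand): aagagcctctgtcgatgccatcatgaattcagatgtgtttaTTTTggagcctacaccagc
SNHG14 (chr15:24823578-24823637, plus strand): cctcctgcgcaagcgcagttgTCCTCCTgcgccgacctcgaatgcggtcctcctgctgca
SNHG11 (chr20:38446624-38446683, plus strand): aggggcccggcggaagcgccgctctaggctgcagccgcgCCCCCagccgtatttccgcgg

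The run of 13 pyrimidines of SNHG4 begins at the annotated start itself, and the marked runs of SNHG12 (12 bases) and ZFAS1 (7 bases) cross it. The marked runs of SNHG16, SNHG1, DANCR, GAS5, SNHG14 and SNHG11 do not touch the listed start, although in SNHG1 a shorter run of 5 pyrimidines covers it. A run of 7 bases or more was found in 13 of the 22 windows (59.1%), against 31.2% of the 35116 windows of all genes. A run of 5 or more was found in 18 of the 22 (81.8%), against 64.7%. The median run was 7 bases for members above 1 CPM and 5 for all windows. These counts take any run near the start, whether or not it covers the start. The RefSeq starts do not always match those of GENCODE 29. Those of SNHG14 and GAS5, for example, lie outside the spans that GENCODE 29 gives these genes. Those of SNHG12 and ZFAS1 lie downstream of the GENCODE 29 start. Such windows need not hold the start of the RNA counted here. The letters CACGTG, the palindrome that MYC is known to bind, occurred in 1 of the 22 windows, that of SNHG7, against 7.26% of all windows. The related letters CACGCG or CGCGTG, the same motif read on either strand, occurred in 6 of the 22 windows (27.3%), against 11.4% of all windows, among them SNHG12 and SNHG16. These are matches of letters and not evidence of binding.

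Single knockdown of c-Myc was examined first, as the ratio of sh-c-Myc to shControl. Of the 22 genes above 1 CPM, 11 were lower by the rule used for single libraries and 0 were higher. That rule asks for 1 CPM or more in some library, a 2-fold or larger ratio of counts scaled by TMM (trimmed mean of M-values) factors, and a 95% interval for counting error clear of a ratio of 1. It called 9.86% of all 13646 genes lower and 12.5% higher. The median log2 ratio of the 22 genes was -0.996, against -0.02 for all genes, and 20 of the 22 ratios were below 0. With scaling to total counts the median of all genes moved to 0.16 and 9 of the 22 genes were lower. The calls that ended were those of GAS5 (log2 ratio -0.91) and SNHG26 (-0.86), and SNHG11 passed 2-fold upwards (1.002).

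Among the 9 measured hosts of box H/ACA snoRNAs only, 6 were lower and the median log2 ratio was -1.23. SNHG15, the host of SNORA9, had 24.8 CPM in the double knockdown, 17.7 CPM in sh-c-Myc, 44.1 CPM in sh-Bcl2 and 56.3 CPM in shControl. It was 3.18-fold lower in sh-c-Myc than in shControl [2.77 to 3.66], the lowest ratio of the 22 genes. DANCR, the host of SNORA26 and an RNA known for keeping epidermal progenitors undifferentiated, had 30.6 CPM in the double knockdown, 28.5 CPM in sh-c-Myc, 88.1 CPM in sh-Bcl2 and 82.3 CPM in shControl. Its 2 libraries with the c-Myc hairpin thus lay close together and well below the 2 without it, and it was 2.89-fold lower in sh-c-Myc than in shControl [2.59 to 3.23]. SNHG17, the host of 4 SNORA71 genes, had 22.5, 16.6, 37.7 and 41.4 CPM in the double knockdown, sh-c-Myc, sh-Bcl2 and shControl, and was 2.49-fold lower in sh-c-Myc [2.15 to 2.90].

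SNHG8 had 53.4 CPM in the double knockdown, 41.4 CPM in sh-c-Myc, 72.7 CPM in sh-Bcl2 and 101 CPM in shControl, which is 2.43-fold lower in sh-c-Myc than in shControl [2.22 to 2.68]. SNHG7, the host of SNORA17A and SNORA17B, had 40.7, 38.2, 63.6 and 89.8 CPM in the same order and was 2.35-fold lower [2.13 to 2.60]. Both were highest in shControl and lowest in the 2 libraries with the c-Myc hairpin, which for SNHG7 lay within counting error of each other. SNHG4, the host of SNORA74A, had 25.3 CPM in the double knockdown, 18.0 CPM in sh-c-Myc, 53.6 CPM in sh-Bcl2 and 41.3 CPM in shControl, and was 2.29-fold lower in sh-c-Myc than in shControl [1.98 to 2.65].

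The other hosts of this class stayed inside the 2-fold limit with TMM scaling. SNHG3 carries SNORA73A and SNORA73B, snoRNAs known for their part in cleaving the ribosomal RNA precursor. It had 85.7 CPM in the double knockdown, 64.6 CPM in sh-c-Myc, 135 CPM in sh-Bcl2 and 111 CPM in shControl, a log2 ratio of -0.78 in sh-c-Myc [-0.89 to -0.66]. EPB41L4A-AS1, the host of SNORA13, had 18.4, 15.8, 24.4 and 26.2 CPM in the same order, a log2 ratio of -0.73 [-0.97 to -0.49]. SNHG11, which hosts SNORA60 and SNORA71E, lay on the other side: 117 counts in the double knockdown, 131 in sh-c-Myc, 113 in sh-Bcl2 and 67 in shControl gave it a log2 ratio of 0.82 in sh-c-Myc [0.39 to 1.27].

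Of the 8 measured hosts of box C/D snoRNAs only, 3 were lower and the median log2 ratio was -0.87. SNHG16, the host of the 3 SNORD1 genes, had 39.2 CPM in the double knockdown, 22 CPM in sh-c-Myc, 74.0 CPM in sh-Bcl2 and 69.8 CPM in shControl. It was 3.17-fold lower in sh-c-Myc than in shControl [2.80 to 3.60]. SNHG1, the host of 8 box C/D snoRNAs at chr11:62851988-62855914 in GENCODE 29, had 78.0 CPM in the double knockdown, 54.3 CPM in sh-c-Myc, 118 CPM in sh-Bcl2 and 159 CPM in shControl. All 4 libraries of SNHG1 were apart beyond counting error, and the gene was 2.92-fold lower in sh-c-Myc than in shControl [2.70 to 3.17]. SNHG26, the host of SNORD93, was 2.07-fold lower [1.35 to 3.26] on 57 counts in the double knockdown, 34 in sh-c-Myc, 92 in sh-Bcl2 and 64 in shControl.

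SNHG5, the host of SNORD50A and SNORD50B, had 60.8 CPM in the double knockdown, 60.7 CPM in sh-c-Myc, 64.3 CPM in sh-Bcl2 and 113 CPM in shControl. All 3 knockdown libraries of this gene lay close together and below shControl, with a log2 ratio of -0.89 in sh-c-Myc [-1.01 to -0.77]. SNHG6 had 81.1 CPM in the double knockdown, 60.4 CPM in sh-c-Myc, 91.2 CPM in sh-Bcl2 and 109 CPM in shControl, a log2 ratio of -0.85 in sh-c-Myc [-0.97 to -0.73]. ZFAS1, the host of 3 SNORD12 genes, had 12.9, 13.0, 21.8 and 19.4 CPM in the same order and a log2 ratio of -0.58 [-0.85 to -0.31]. SNHG14 had 197 CPM in the double knockdown, 217 CPM in sh-c-Myc, 202 CPM in sh-Bcl2 and 172 CPM in shControl. It was thus the one gene of the 16 above 10 CPM with a ratio above 0, a log2 ratio of 0.34 [0.26 to 0.41]. SNHG19, the host of SNORD60, had 24 to 35 counts in the 4 libraries and an interval of -1.50 to 0.10.

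GAS5 and SNHG12 host snoRNAs of both kinds, and both were lower with TMM scaling, though GAS5 did not reach 2-fold with total-count or upper quartile scaling. GAS5, named for its accumulation on growth arrest and annotated at chr1:173863900-173868882 with 10 box C/D snoRNAs and 1 box H/ACA snoRNA, had 382 CPM in the double knockdown, 314 CPM in sh-c-Myc, 482 CPM in sh-Bcl2 and 674 CPM in shControl. It was 2.14-fold lower in sh-c-Myc than in shControl [2.07 to 2.22], the narrowest interval of the 22 genes on the log2 scale. SNHG12 had 22.5, 21.7, 39.2 and 50.2 CPM in the same order and was 2.31-fold lower [2.03 to 2.64]. Of the hosts of scaRNAs, SNHG10 and SNHG20 had log2 ratios of -0.18 [-0.85 to 0.48] and -0.22 [-0.68 to 0.24], differences not detectable at their depth of 36 to 93 counts. CYTOR, which hosts none, had 79 counts in the double knockdown, 47 in sh-c-Myc, 121 in sh-Bcl2 and 82 in shControl, a log2 ratio of -0.94 [-1.50 to -0.41]. CYTOR has a near-identical copy, MIR4435-2HG, between which reads may be split, so its value is uncertain.

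**Figure D2:**
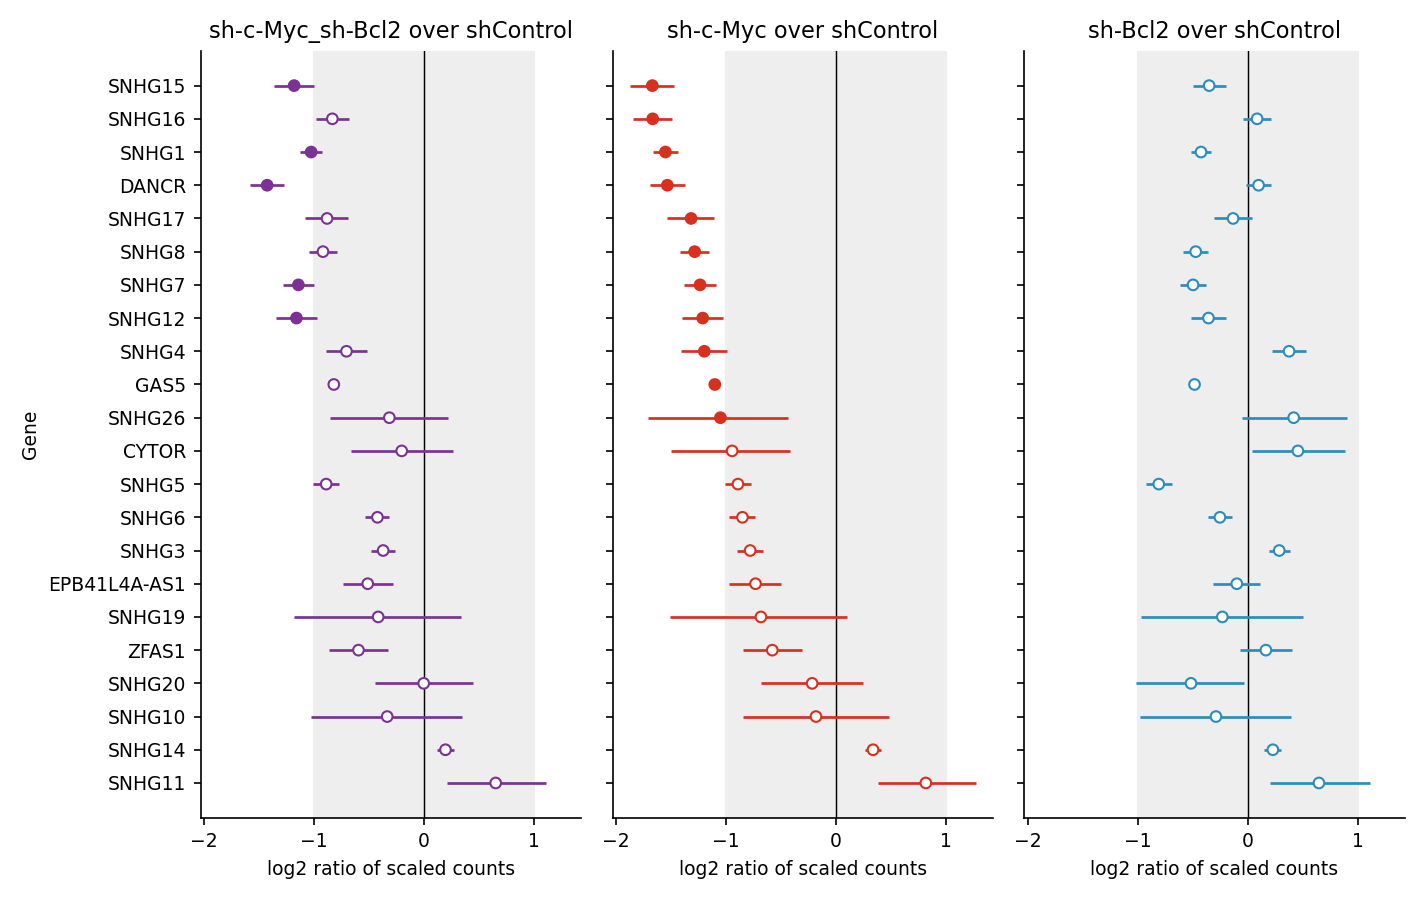
Log2 ratio to shControl of 22 noncoding host genes in the double knockdown (left), sh-c-Myc (middle) and sh-Bcl2 (right), with bars for the 95% counting interval, filled points for genes past the 2-fold rule and grey shading inside 2-fold. In the middle panel 11 points are filled, in the left panel 5 and in the right panel 0, and SNHG14 and SNHG11 lie right of 0 in all 3.

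The remaining members were too low for a comparison. SNHG9 had 2 counts in the double knockdown, 10 in sh-c-Myc, 2 in sh-Bcl2 and 4 in shControl, SNHG21 had 0 to 3 counts, and SNHG25 and SNHG27 had 1 count in a single library.

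Where genes overlap, counting reads without regard to strand can mix their signals, and the sources used here do not give the strand setting. Of the 26 genes, 15 share at least 10% of their exonic bases with another annotated gene, on either strand and with hosted small RNA genes included. Among them are EPB41L4A-AS1 (49.6%), ZFAS1 (46.9%), SNHG6 (36.4%), SNHG16 (33.4%) and SNHG7 (31.4%). The coding gene on the other strand of EPB41L4A-AS1, EPB41L4A, had at most 0.330 CPM, and MCMDC2 beside SNHG6 at most 1.49 CPM. FAM69B opposite SNHG7 had at most 3.26 CPM and AC015802.6 opposite SNHG16 at most 0.142 CPM. Other partners were well above the host. ZNFX1 reached 91.4 CPM beside at most 21.8 CPM for ZFAS1, GLRX5 55.0 CPM beside at most 2.91 CPM for SNHG10 and SEC14L1 68.0 CPM beside at most 5.96 CPM for SNHG20. RCC1 had 197 CPM beside 111 CPM for SNHG3 in shControl and 168 CPM beside 135 CPM in sh-Bcl2. It was below SNHG3 in sh-c-Myc (39.6 beside 64.6 CPM) and in the double knockdown (63.7 beside 85.7 CPM). Of the 10 measured members that share less than 10% of their exonic bases, 5 were lower in sh-c-Myc than in shControl. This subset was chosen after the data had been seen.

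The 4 libraries also form a layout of 2 hairpins crossed, which was fitted with 1 term per hairpin over 12855 genes. Its single residual degree of freedom mixes departure from additivity with library-to-library spread. The edgeR p-values rest largely on spread borrowed across the 12855 genes (35.4 prior degrees of freedom). They do not measure the spread between cultures of a group. In edgeR's quasi-likelihood test with Benjamini-Hochberg adjustment, 13 of the 22 genes fell with the c-Myc hairpin and 0 rose, against 15.9% of all genes that fell and 13.0% that rose. DANCR fell by 1.49 on the log2 scale (SE 0.170, adjusted p = 3.24e-08), SNHG16 fell by 1.24 (SE 0.180, adjusted p = 2.11e-06) and GAS5 fell by 0.68 (SE 0.191, adjusted p = 0.00674) in the edgeR fit. The others that fell were SNHG1, SNHG3, SNHG4, SNHG6, SNHG7, SNHG8, SNHG12, SNHG15, SNHG17 and ZFAS1. SNHG5 and EPB41L4A-AS1 just missed the edgeR threshold of 0.05, with adjusted p = 0.0517 and 0.0531. DESeq2 called 11 of the 22 lower and 0 higher, beside 1239 lower and 826 higher of all 12855 genes. With limma-voom 14 of the 22 were lower and 0 higher, beside 2069 lower and 1695 higher of all 12855 genes.

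Other long noncoding genes had the opposite balance in the same comparison. The sh-c-Myc library also had the most genes with a count, 21426 against 19450 in shControl. The part of that difference in this balance was not tested. Of 1421 other long noncoding genes above 1 CPM, 34.8% had a higher and 4.43% a lower call in sh-c-Myc against shControl, with a median log2 ratio of 0.67. At 10 CPM or more, 32.2% of 202 were higher and 3.96% lower, whereas 0 of the 16 host genes at that level were higher and 10 were lower, where 10.8% of all 9511 genes at 10 CPM or more were lower and 5.76% higher. Among 14 measured long noncoding RNAs of a list of well-known ones, 5 had a higher and 1 a lower call, with a median of 0.52. NEAT1, the scaffold of nuclear paraspeckles, had 50.7 CPM in the double knockdown, 86.8 CPM in sh-c-Myc, 31.6 CPM in sh-Bcl2 and 29.2 CPM in shControl, a log2 ratio of 1.57 in sh-c-Myc [1.41 to 1.74]. NORAD, a cytoplasmic RNA that binds Pumilio proteins, had a log2 ratio of 0.63 and FTX, a transcript of the X inactivation centre, one of 0.73. PVT1, the neighbour of MYC, had a log2 ratio to shControl of -1.41 in the double knockdown and -0.59 in sh-c-Myc.

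Hosts of microRNAs were mixed, with 2 higher and 1 lower of 7 measured and a median of 0.01. MIR17HG, the host of the miR-17-92 cluster, had 7.74 CPM in the double knockdown, 4.68 CPM in sh-c-Myc, 18.9 CPM in sh-Bcl2 and 13.5 CPM in shControl, a log2 ratio of -1.52 in sh-c-Myc [-1.94 to -1.13]. MIR155HG had a log2 ratio of 0.31 and MIR4435-2HG one of -0.86.

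Protein-coding hosts of snoRNAs were listed for the same comparison. Of 37 such genes 15 were lower in sh-c-Myc than in shControl and 0 higher, with a median log2 ratio of -0.92, close to that of the noncoding hosts. NCL, which encodes the nucleolar protein nucleolin, had 763 CPM in the double knockdown, 531 CPM in sh-c-Myc, 1407 CPM in sh-Bcl2 and 1520 CPM in shControl, a log2 ratio of -1.52 [-1.55 to -1.48]. HSPA8, a constitutive chaperone gene, had a log2 ratio of -1.55 and EEF1B2, a translation elongation factor gene, one of -1.44.

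Genes for the proteins that coat snoRNAs were lower as well. All 4 genes for box C/D core proteins were lower in sh-c-Myc than in shControl (median log2 ratio -1.36): FBL, the methyltransferase, at -1.65, NOP56 at -1.37, NOP58 at -1.34 and SNU13 at -1.04. FBL had 121 CPM in the double knockdown, 90.4 CPM in sh-c-Myc, 214 CPM in sh-Bcl2 and 284 CPM in shControl, the same order of libraries as SNHG1 and GAS5. Of the 4 genes for box H/ACA core proteins 3 were lower (median -1.70). These were DKC1, the pseudouridine synthase and itself a snoRNA host, at -1.63, NHP2 at -1.82 and GAR1 at -1.77, while NOP10 stood at -0.93.

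Of 13 assembly factors 7 were lower (median -1.05), including TCOF1 at -2.16, NOLC1 at -1.93, NUFIP1 at -1.85 and the ATPase gene RUVBL1 at -1.67. The genes for the decay steps that follow splicing moved less. Of 16 genes of nonsense-mediated decay 1 was lower and 0 higher (median -0.35), the 1 being MAGOH at -1.66, with EIF4A3 at -0.92, MAGOHB at -0.79 and CASC3 at -0.49. Of 9 genes of intron turnover and RNA decay 0 were called in either direction (median -0.43), with EXOSC3 at -0.87, MTREX at -0.79, DIS3 at -0.59 and DBR1, the lariat-debranching enzyme, at -0.56.

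**Figure D3:**
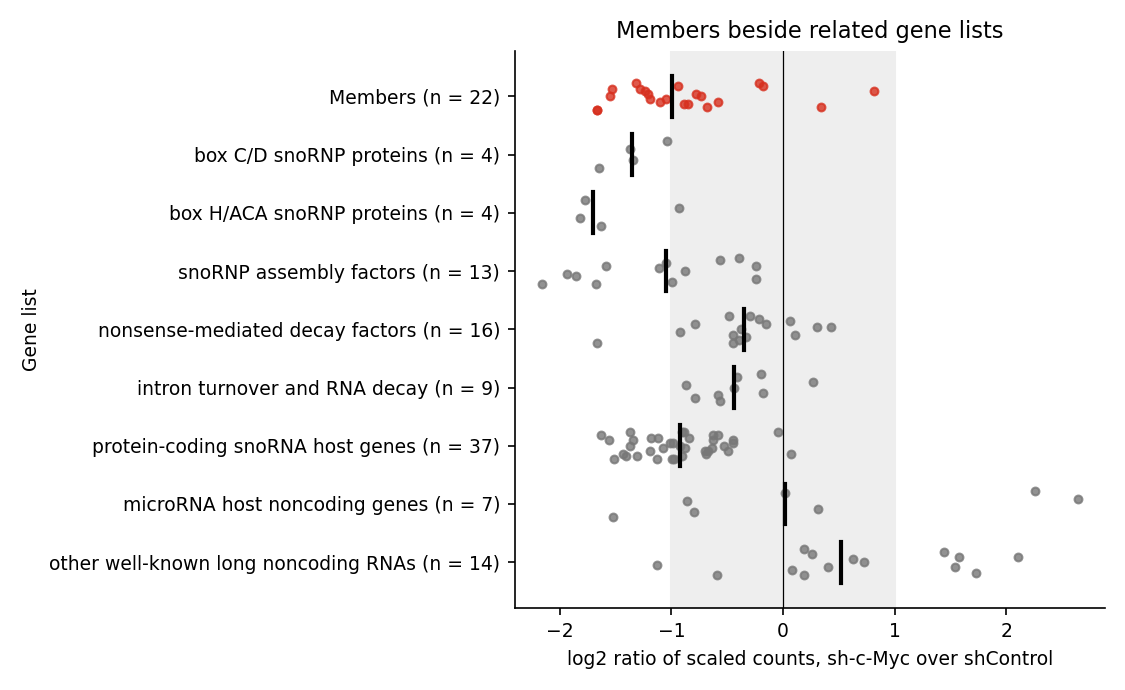
Log2 ratio of sh-c-Myc over shControl for the 22 noncoding host genes (red) and 8 related gene lists (grey), with 1 point per gene, a black bar at each median and grey shading inside 2-fold. The noncoding hosts (median -0.996) lie near the protein-coding hosts (median -0.92) and apart from the well-known long noncoding RNAs (median 0.52). The medians of the box C/D (-1.36) and box H/ACA (-1.70) snoRNP proteins lie below that of the noncoding hosts.

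Several host genes start within 5 kb of the start of a protein-coding gene, and the partners were compared in sh-c-Myc against shControl. GAS5 starts 800 bases from ZBTB37, a zinc finger gene on the opposite strand, which had 66.0 CPM in the double knockdown, 94.4 CPM in sh-c-Myc, 72.9 CPM in sh-Bcl2 and 62.1 CPM in shControl. Its log2 ratio was 0.60 where that of GAS5 was -1.10, a difference of -1.70 [-1.83 to -1.57 for counting error]. ZFAS1 starts 248 bases from ZNFX1, which had a log2 ratio of 0.09 beside -0.58 for ZFAS1, a difference of -0.67 [-0.96 to -0.38]. SNHG1 starts 188 bases from SLC3A2, an amino acid transporter subunit gene, and both had ratios below 0, at -1.55 for SNHG1 and -0.92 for SLC3A2. SNHG20 had a log2 ratio of -0.22 beside 0.42 for SEC14L1, which starts 2033 bases away on the same strand. SNHG19 had one of -0.68 beside -0.47 for TRAF7, which starts 340 bases away, a difference within counting error. In these pairs the noncoding host had the lower ratio.

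In the pairs of SNHG3 and SNHG10 the coding gene had the lower ratio. SNHG3 and RCC1, a gene for a chromatin-bound nucleotide exchange factor, start 37 bases apart on the same strand. RCC1 had 63.7 CPM in the double knockdown, 39.6 CPM in sh-c-Myc, 168 CPM in sh-Bcl2 and 197 CPM in shControl, a log2 ratio of -2.32 in sh-c-Myc beside -0.78 for SNHG3, a difference of 1.54 [1.37 to 1.71]. GLRX5 had a log2 ratio of -1.16 beside -0.18 for SNHG10, which starts 1369 bases away. RPS2, a ribosomal protein gene that starts 99 bases from the barely counted SNHG9, had a log2 ratio of -1.41. Of the coding genes that overlap a host further from its start, UBE3A opposite SNHG14 had a log2 ratio of -0.47, SNRPN on the strand of SNHG14 one of 1.00 at 2.06 to 4.17 CPM, TRNAU1AP opposite SNHG12 one of -0.64 and SIL1 opposite SNHG4 one of 0.31. FSD2 and RNF151 had under 1 CPM in every library, as did the gene entry named MATR3 that overlaps SNHG4.

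**Figure D4:**
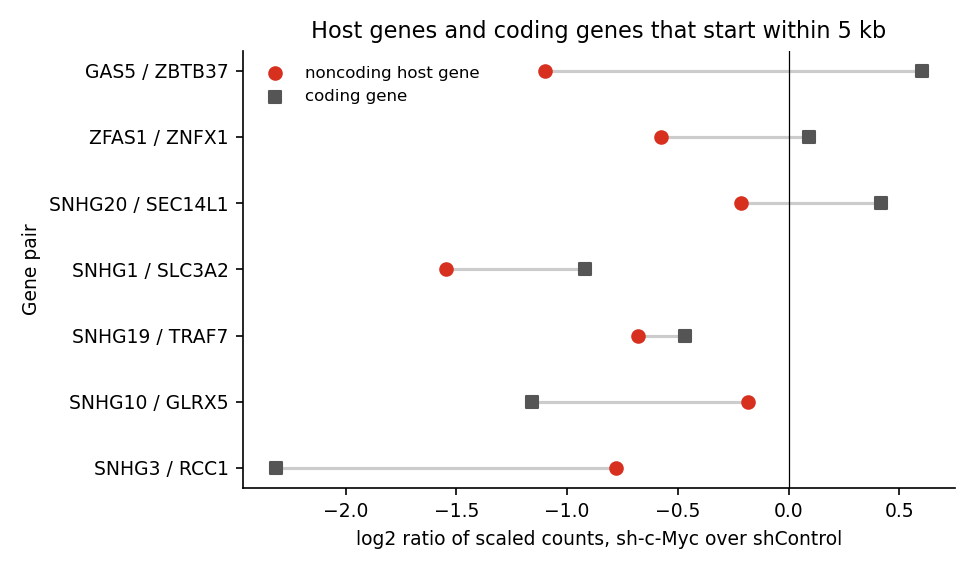
Log2 ratio of sh-c-Myc over shControl for 7 noncoding host genes (circles) and the protein-coding gene above 10 CPM that starts within 5 kb (squares), joined by a line. GAS5 and ZBTB37 lie on opposite sides of 0, and the widest gaps are those of GAS5 (-1.70) and SNHG3 (1.54).

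The Bcl-2 hairpin alone left all 22 genes inside the 2-fold limit. In sh-Bcl2 against shControl 0 were lower and 0 higher, where 2.16% of all genes were lower and 2.45% higher. Smaller differences went both ways: 9 intervals lay below a ratio of 1 and 5 above it, against 23.1% and 22% of all genes, and the median log2 ratio was -0.18. SNHG5 had the lowest log2 ratio, -0.81 [-0.93 to -0.69]. SNHG7 at -0.50, GAS5 at -0.48 [-0.53 to -0.44], SNHG8 at -0.47 and SNHG1 at -0.42 followed among the genes above 10 CPM. SNHG4 at 0.37 [0.22 to 0.53], SNHG3 at 0.29 [0.19 to 0.38] and SNHG14 at 0.23 [0.15 to 0.31] lay above 0, and DANCR at 0.10 [-0.02 to 0.21] and SNHG16 at 0.08 [-0.04 to 0.21] included 0. In the fit of 2 hairpins crossed, edgeR called 0 of the 22 genes for the Bcl-2 hairpin in either direction, against 0.194% of all genes that fell and 0.101% that rose. At an unadjusted p under 0.05 edgeR gave 3 higher and 1 lower, limma-voom 3 higher and 1 lower, and DESeq2 0 in either direction. The share of all genes at that unadjusted threshold is not given here, so these counts cannot be set against it. After adjustment DESeq2 and limma-voom also called 0 of the 22. Of all 12855 genes DESeq2 called 3 higher and 10 lower, and limma-voom 15 higher and 29 lower.

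With both hairpins together, the median of the host genes lay between those of sh-c-Myc and sh-Bcl2 when each was set against shControl. In the double knockdown against shControl 5 of the 22 genes were lower and 0 higher, where 5.99% of all genes were lower and 7.10% higher, and the median log2 ratio was -0.65. The 5 were DANCR, 2.69-fold lower [2.41 to 3.0], SNHG15 at 2.27-fold, SNHG12 at 2.23-fold, SNHG7 at 2.21-fold and SNHG1 at 2.04-fold [1.90 to 2.19]. GAS5 had a log2 ratio of -0.82 [-0.87 to -0.77] and SNHG16 one of -0.83 [-0.98 to -0.69]. This comparison and that of sh-c-Myc with shControl share the shControl library.

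Against sh-c-Myc, 0 of the 22 genes were called in the double knockdown, where 1.66% of all genes were higher and 4.70% lower. Still, 18 of the 22 log2 ratios were above 0 and 11 intervals lay wholly above it, with a median of 0.27 against 0.03 for all genes. For all genes 31.5% of intervals lay above 0. SNHG16 had the largest ratio, 1.78-fold higher in the double knockdown than in sh-c-Myc [1.56 to 2.04], followed among the genes above 10 CPM by SNHG1 at 1.44-fold [1.32 to 1.57]. SNHG5 at 0.00 [-0.13 to 0.13], SNHG12 at 0.05, SNHG7 at 0.09 and DANCR at 0.11 [-0.08 to 0.30] on the log2 scale included 0. Other long noncoding genes had a median log2 ratio of -0.41 in this comparison, with 17.8% of them lower.

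Against sh-Bcl2, DANCR and SNHG4 were lower in the double knockdown and 0 of the 22 genes were higher, where 3.63% of all genes were lower and 5.21% higher. DANCR was 2.87-fold lower [2.59 to 3.20] and SNHG4 2.11-fold lower [1.87 to 2.39]. The c-Myc hairpin thus gave DANCR nearly the same log2 ratio in both backgrounds, -1.52 when added to the Bcl-2 hairpin and -1.53 alone. SNHG1 had -0.60 when the hairpin was added and -1.55 alone, SNHG8 had -0.45 and -1.28, and GAS5 had -0.34 and -1.10. SNHG5 had -0.08 [-0.21 to 0.05] when added and -0.89 alone.

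**Figure D5:**
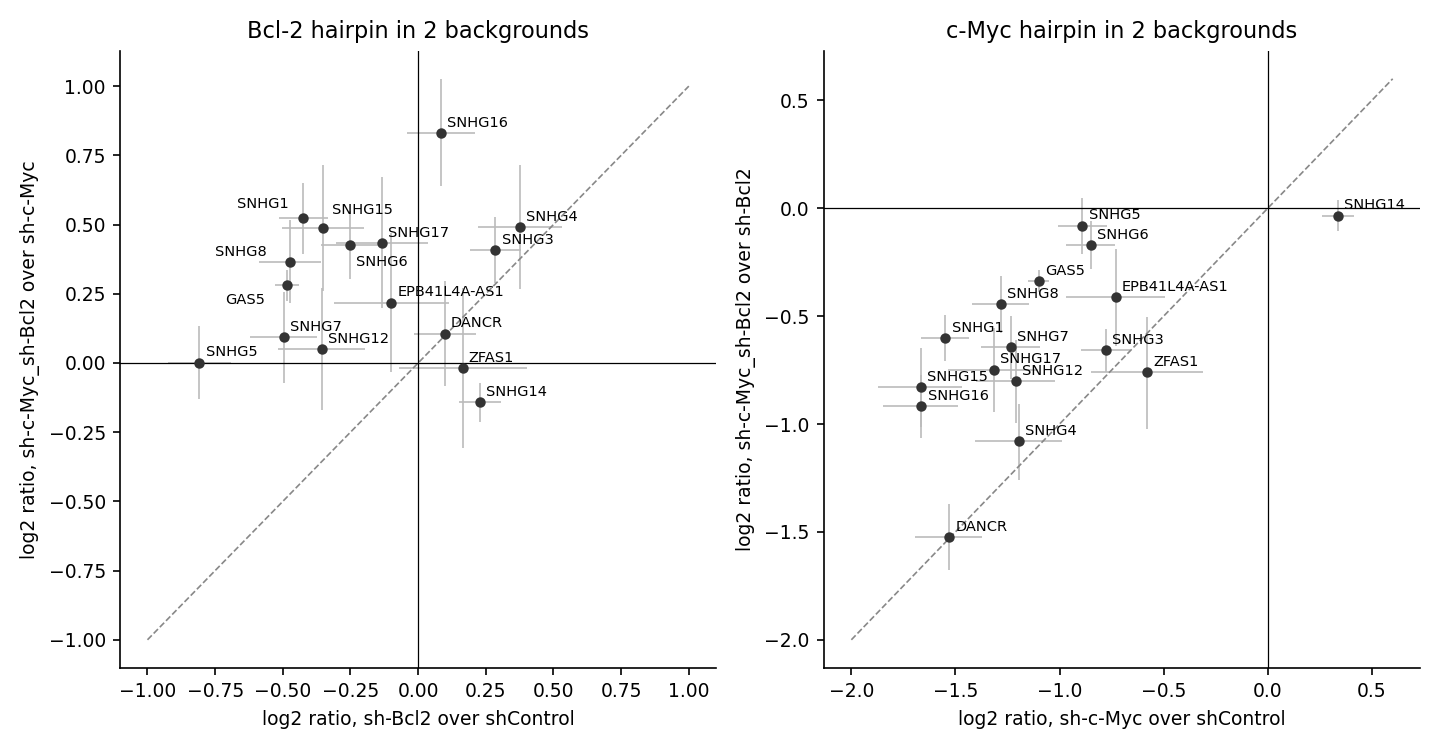
Log2 ratios of the 16 host genes above 10 CPM for the Bcl-2 hairpin (left panel) and the c-Myc hairpin (right panel), each added to the other hairpin (vertical axis) and alone (horizontal axis), with 95% counting intervals and a dashed line of equality. On the left GAS5, SNHG1, SNHG6, SNHG8 and SNHG15 lie above 0 on the vertical and below 0 on the horizontal axis, and on the right DANCR and SNHG4 lie on or near the dashed line while most others lie above it.

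How far the double knockdown lay from additivity of the single effects was computed as its log2 ratio to shControl minus those of sh-c-Myc and sh-Bcl2. For 0 of the 22 genes was it past 2-fold in either direction, where 3.04% of all genes were past it upwards and 5.73% downwards. The median was 0.45 for the 22 genes and 0.05 for all genes, and 11 intervals for counting error lay above 0 and 2 below it, against 29.2% and 18.8% of all genes. The largest were those of SNHG1 (0.95 [0.79 to 1.10]), SNHG15 (0.84 [0.57 to 1.11]), SNHG8 (0.84 [0.65 to 1.02]), SNHG5 (0.81 [0.64 to 0.98]) and GAS5 (0.76 [0.69 to 0.83]). DANCR was at 0.01 [-0.21 to 0.23], SNHG4 at 0.12 and SNHG3 at 0.12 [-0.03 to 0.27]. SNHG14 (-0.37 [-0.47 to -0.27]) and SNHG11 (-0.81 [-1.38 to -0.25]) were the 2 with intervals below 0. With 1 library per group this distance cannot be told apart from the spread between cultures.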

How the data were processed

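The authors deposited, for each of 4 libraries (1 a group), gene counts and FPKM values. Per the submitters' processing notes the tools were HISAT2 and HTSeq 0.13.5, and the build GRCh38; the sources used here do not give the annotation or strand setting. Gene lengths recovered from the deposited counts and FPKM were within 1% of the GENCODE 29 exon length for 99.98% of genes, so GENCODE 29 supplied gene types, positions and snoRNAs.

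Members and the gene lists (snoRNP proteins, assembly, decay, hosts, long noncoding RNAs) were chosen with earlier results of these data known. Named genes are all members, MYC, BCL2, up to 4 genes per list with the largest log2 ratio in sh-c-Myc at 10 CPM or more, and coding genes that overlap a member or start within 5 kb (5000 bases) of its start.

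Counts were scaled with TMM (edgeR 4.0.16, R 4.3.3). Log2 ratios (prior 0.5) carry exact conditional binomial 95% intervals for counting error only, since no test between single libraries is possible. The crossed layout was fitted with edgeR's quasi-likelihood test (genes with 1 CPM in 2 libraries, threshold 0.05), with DESeq2 1.42.0 and limma-voom 3.58.1 as alternatives. Labels name no separate cultures. At 14421558 to 15691129 counts, 3 counts correspond to 0.192 to 0.213 CPM. Methods were tested on simulated data.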

Additional observations from a re-analysis of the deposited data

Results flagged for a closer look

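Several host genes had ratios of opposite sign for the Bcl-2 hairpin in the presence and absence of the c-Myc hairpin, each with a counting interval that excludes 0. When the Bcl-2 hairpin was added to the c-Myc hairpin (double knockdown over sh-c-Myc) and when it was alone (sh-Bcl2 over shControl), the log2 ratios were 0.28 and -0.48 for GAS5, 0.52 and -0.42 for SNHG1, 0.49 and -0.35 for SNHG15, 0.43 and -0.25 for SNHG6, and 0.36 and -0.47 for SNHG8. SNHG14 had the other order, -0.14 when added and 0.23 alone, as did 3.69% of all genes. With 1 library per group the difference was not tested. The first pattern held for 5 of 22 members (22.7%) and 6.86% of all genes, and for the same number of members with total-count, DESeq2 or upper quartile scaling. The c-Myc hairpin gave opposite signs in 0 of the 22, against 1.72% of all genes in one order and 1.03% in the other.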

How the results depend on the processing

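Of 173 summary values under alternative settings 147 kept their size, and a single median changed sign (sh-Bcl2, below). In sh-c-Myc against shControl, 1 member was higher with total-count scaling and 1 with a 1.5-fold limit; 5 were lower with FPKM + 1, 1 of 2 among members sharing no exonic base and 5 of 10 among those sharing under 10% (chosen after seeing the data, as are its values below). The median was -1.20 at 10 CPM, -0.67 with FPKM + 1 and -0.75 with FPKM + 0.1. In sh-Bcl2 against shControl, 1.5-fold gave 1 higher and 1 lower, and the median without shared bases was 0.093. In the double knockdown against shControl, 1.5-fold gave 12 lower and 1 higher, FPKM + 1 gave 1 lower, no shared base 0 lower and a median of -0.37, under 10% shared 2 lower, and 10 CPM a median of -0.86. Against sh-c-Myc, no filter gave 1 lower (SNHG9, on 2 and 10 counts), 1.5-fold 3 higher, and no shared base a median of 0.50. Against sh-Bcl2, 1.5-fold gave 12 lower, FPKM + 1 gave 1 lower and a median of -0.40, and no shared base or under 10% shared gave 0 lower. The FPKM settings change the pseudocount and the scaling together (total-count scaling alone gave a sh-c-Myc median of -0.81), and the subsets hold fewer genes by construction; the cause was otherwise not tested. Shares of all genes called at the 1.5-fold limit or on the FPKM scale are not given here. The member counts at those settings therefore show only how calls move with the setting. No paired analysis was possible because each group holds 1 library.

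With 1 library per group the spread between cultures is unknown, and intervals cover counting error only. SNHG10, SNHG19, SNHG20 and SNHG26 rest on under 100 counts per library. MYC RNA was under 2-fold lower in every knockdown library. Counts on exons shared with a gene on the other strand cannot be assigned without strand. Those shared with a gene on the same strand stay ambiguous even with it.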
